A study of Saccharomyces cerevisiae with 18 samples.

Results

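The ribosomal proteins of the yeast cytosol are encoded by a family of short, highly transcribed genes, many of them kept as 2 copies, called A and B, that encode the same or nearly the same protein. Of 7127 gene identifiers, 136 carried a symbol of the form *RPL* or *RPS* with a number, or one of *RPP0*, *RPP1A*, *RPP1B*, *RPP2A* and *RPP2B*. They were chosen by symbol alone, with no measured value. They divide into 55 genes of the small (40S) and 81 of the large (60S) subunit, and into 58 pairs of copies, 19 genes with 1 copy and 1 gene placed in neither class. All 136 passed the low-count filter. RNA came from 3 libraries for each of 6 groups of *S. cerevisiae* strain BY4741 (*MATa his3Δ1 leu2Δ0 met17Δ0 ura3Δ0*, alleles that every group shares and that leave the cells dependent on an organic sulfur source). The groups were wild type (wt), *snf2Δ* and *snf5Δ* cells, each taken in log phase from rich medium (YPD) or from the same medium 30 min after 3 mM cysteine was supplied (YPD+Cys). *SNF2* encodes the ATPase of the Swi-Snf chromatin remodeler and *SNF5* another of its subunits. Deleting them tests which transcripts depend on the complex, and cysteine tests whether that dependence changes when the sulfur amino acid is supplied.

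In yeast, transcription of ribosomal protein genes takes a large part of the activity of RNA polymerase II and follows growth through TORC1 and protein kinase A. Rap1 binds most of their promoters and recruits Fhl1 and its coactivator Ifh1, while Sfp1 and Hmo1 act with them and Crf1 opposes Ifh1. Because the proteins are needed in equal numbers, the genes usually rise and fall together, and several copies are held down by their own protein at splicing or RNA decay.

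The libraries held between 1329986 and 4845830 reads in genes. The deleted genes were checked first. *SNF2* had 169 to 242 CPM (counts scaled to a total of 1e6, here of the reads in genes) in the 6 wt libraries and 1.20 to 5.24 in the 6 *snf2Δ* libraries, and *SNF5* had 37.3 to 53.0 in wt and at most 0.287 in *snf5Δ*. No library held a count of *LEU2*, *URA3* or *MET17*, whereas *HIS3*, deleted in part, was counted in each. In 3 libraries, *snf2Δ* YPD 2 and 3 and *snf5Δ* YPD 3, over 40% of reads aligned to more than 1 place. Those reads are outside the counts, and results were also computed without the 3 libraries, which leaves *snf2Δ* in YPD with 1 library, assumed to vary like the other groups. The labels number 3 replicates without saying that they were separate cultures, so p-values measure only the spread between these libraries.

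In structure the family stood out from other genes. Introns interrupted the coding sequence of 88 of 136 members (64.7%), against 5.31% of the 5987 nuclear protein-coding genes, with nearly the same share in the small (63.6%) and the large subunit (65.4%). In the 500 bases before the start codon, the core of the Rap1 site, written here as ACACCC, 2 bases of any kind and ACA and searched on both strands, occurred in 19 of 136 members (14%) and in 0.933% of 6000 protein-coding genes. TTACCCG, the Reb1 site, occurred in 5.15% of members against 10.1% of all, the Abf1 site in 17.6% against 22.7%, and AAAATTTT in 12.5% against 12.4%. Matches on opposite strands of the palindrome AAAATTTT are the same letters, and no overlap between motifs was removed. The Rap1 matches of 6 members, 4 of them described by their values further on and the *RPS10* copies as a pair with a match before both genes, are shown with 10 bases on each side, from RefSeq assembly R64, in the direction of the gene and with the match in capitals.
RPL14A (chrXI:431484-431514, plus strand): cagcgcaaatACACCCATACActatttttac
RPL25 (chrXV:79940-79970, plus strand): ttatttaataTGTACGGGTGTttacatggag
RPL41B (chrIV:222127-222157, minus strand): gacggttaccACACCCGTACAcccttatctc
RPL22B (chrVI:65159-65189, minus strand): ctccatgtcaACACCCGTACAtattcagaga
RPS10A (chrXV:866748-866778, plus strand): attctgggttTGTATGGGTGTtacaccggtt
RPS10B (chrXIII:732214-732244, plus strand): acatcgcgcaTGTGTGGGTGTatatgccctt
The match lies on the other strand in *RPL25* and both *RPS10* copies, and on the strand of the gene in the remaining 3. A match is a description of the letters, not of binding. *RPS10A* and *RPS10B*, which encode a protein of the small subunit, were called in none of the comparisons of a mutant with wt. In YPD their log2 fold changes were -0.19 ± 0.23 and -0.21 ± 0.20 in *snf2Δ* (SE; edgeR adjusted p = 0.602 and 0.503) and -0.49 ± 0.23 and -0.55 ± 0.20 in *snf5Δ* (edgeR adjusted p = 0.127 and 0.0524).

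Ribosomal protein transcripts took a smaller share of the counts in both mutants in YPD. There the 136 genes held 11.1%, 8.94% and 12.6% of the counts in genes in the wt libraries, 6.74%, 8.08% and 8.6% in *snf2Δ* and 7.17%, 7.72% and 8.74% in *snf5Δ*. Each mutant library lay below each wt library. In YPD+Cys the shares were 9.39%, 8.5% and 11.6% in wt, 5.92%, 7.6% and 8.27% in *snf2Δ* and 7.34%, 7.91% and 9.3% in *snf5Δ*. There *snf2Δ* stayed below wt, while *snf5Δ* and wt overlapped, since *snf5Δ* replicate 3 lay above wt replicate 2. The library numbered 3 held the highest share in 6 of 6 groups. Compared number by number, each *snf5Δ* share in YPD+Cys lay below that of wt, though the labels do not say that the numbers pair strains. With 3 libraries a group an exact two-sided permutation test cannot give a p below 0.10, so none is given for the shares. A share of counts does not tell less RNA per gene from more RNA of other genes. On TPM, which divides by gene length, the libraries of each mutant and wt overlapped also in YPD, where wt replicate 2 held 6.20%, *snf2Δ* replicate 3 6.67% and *snf5Δ* replicates 1 and 2 6.38% and 7.44%. The mean TPM share was 7.87% in wt and 6.30% in *snf5Δ* in YPD, but 6.64% in wt and 7.93% in *snf5Δ* in YPD+Cys, the opposite order.

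Both subunits contributed. For small subunit genes in YPD, wt held 4.71% ± 0.812 (SD, n = 3) of counts, against 3.43% ± 0.49 for *snf2Δ* and 3.47% ± 0.391 for *snf5Δ*. For large subunit genes it was 6.17% ± 1.02 for wt, against 4.38% ± 0.469 for *snf2Δ* and 4.41% ± 0.406 for *snf5Δ*. The large subunit share divided by the small was 1.31 ± 0.0372 in wt, 1.28 ± 0.0497 in *snf2Δ* and 1.27 ± 0.0297 in *snf5Δ* in YPD, and the libraries of the 3 strains overlapped. In YPD+Cys it was 1.34 ± 0.0392, 1.28 ± 0.0624 and 1.29 ± 0.0619, again with overlap.

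**Figure D1:**
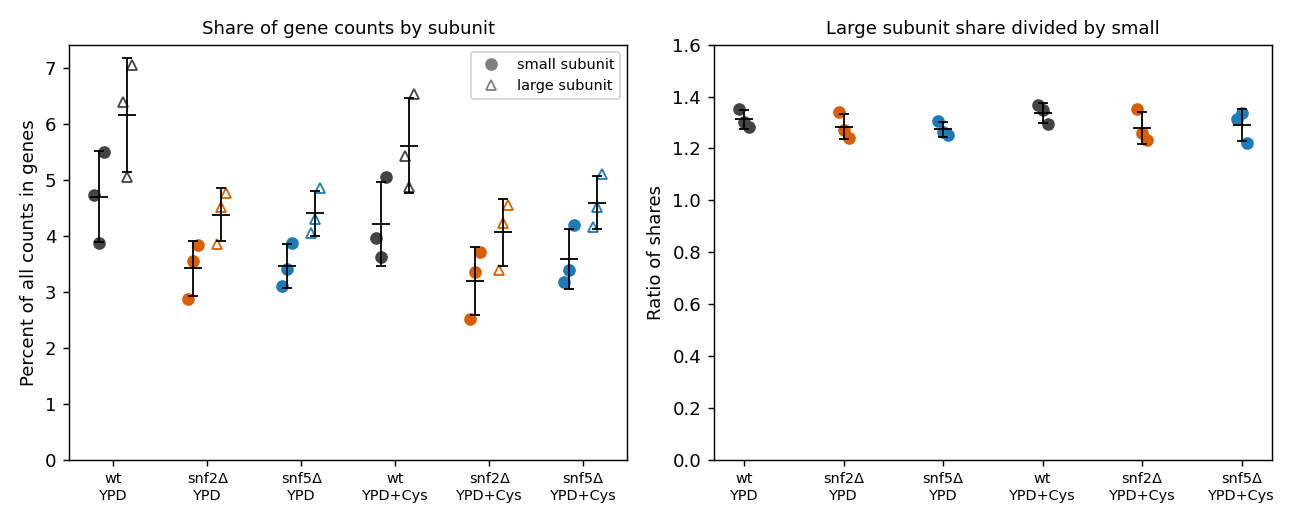
Left, the share of all counts in genes (percent, vertical axis) held by small subunit genes (filled circles) and large subunit genes (open triangles) in each library of the 6 groups. Right, the ratio of both shares. Bars show mean and SD of 3 libraries. Both subunits are lower in the mutants in YPD, with a ratio between 1.22 and 1.37 in all 18 libraries.

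Gene by gene, the question was how many members fell with loss of each subunit of Swi-Snf. Counts were scaled by TMM, which sets the bulk of genes level, and tested with edgeR's quasi-likelihood test across all 5757 genes that passed the filter. The threshold for a call was 0.05 after Benjamini-Hochberg adjustment, and CPM from here on are on that scale. In *snf2Δ* in YPD 110 of 136 members (80.9%) were lower than in wt and 0 were higher, where 11.8% of all genes were called lower and 7.89% higher. In *snf5Δ* in YPD 125 (91.9%) were lower and 1 was higher, against 15% lower and 12% higher among all genes. The median log2 fold change of the members was -0.77 in *snf2Δ* and -0.78 in *snf5Δ*, or 1.71 times lower in each, while that of all genes was 0.02 and -0.01. In YPD+Cys 99 members (72.8%) were lower and 0 higher in *snf2Δ*, against 11.6% and 7.73% of all genes, with a median of -0.65. In *snf5Δ* in YPD+Cys 56 (41.2%) were lower and 1 was higher, against 11.3% and 9.73% of all genes, with a median of -0.49. One set of wt libraries in each medium served for both mutants, so the values of the mutants are not independent. Of the members, 54 were lower in all 4 comparisons and 9 in none. No share of all genes is given for these joint counts, so they are not a comparison with other genes. For the counts of 0 higher in *snf2Δ*, no member was higher at an unadjusted p under 0.05 either, and DESeq2 called 0.

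The size of the fall rests on the scale, and the count of calls on single libraries. With library totals in place of TMM, all genes moved by 0.26, 0.34, 0.18 and 0.23 (median log2, in the order *snf2Δ* and *snf5Δ* in YPD, then in YPD+Cys), and 79, 43, 48 and 8 members were lower. With limma on log2(TPM + 1) 0 of 134 members were lower in each comparison, and the member median in *snf5Δ* in YPD+Cys turned to 0.33, where that of all genes was 0.73. Relative to the median of all genes, the member median was -0.79, -0.77, -0.66 and -0.47 with TMM, -0.79, -0.76, -0.65 and -0.47 with library totals, and -0.78, -0.72, -0.59 and -0.40 with log2(TPM + 1). In YPD+Cys, without wt replicate 3 the counts of lower members were 35 in *snf2Δ* and 9 in *snf5Δ*. Without *snf2Δ* replicate 1 the first was 37. The second was 33 without wt replicate 1, 92 without wt replicate 2, and 12 and 9 without *snf5Δ* replicates 1 and 2. With only the compared groups in the fit, 20 and 14 members were lower in YPD+Cys. Without the 3 libraries with many reads in several places, 81 members were lower in *snf2Δ* in YPD, with a median of -0.92, and 121, 90 and 34 in the other 3 comparisons. Among genes described below, calls in *snf2Δ* in YPD were then lost for *RPL3*, *RPL10*, *RPL28*, *RPL20B*, *RPP1A* and *RPS28A* (edgeR adjusted p = 0.0616, 0.11, 0.109, 0.069, 0.0903 and 0.0713), and in *snf5Δ* for *RPL3* and *RPS28B* in YPD (0.0589 and 0.0516) and *RPP2A* in YPD+Cys (0.0766).

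**Figure D2:**
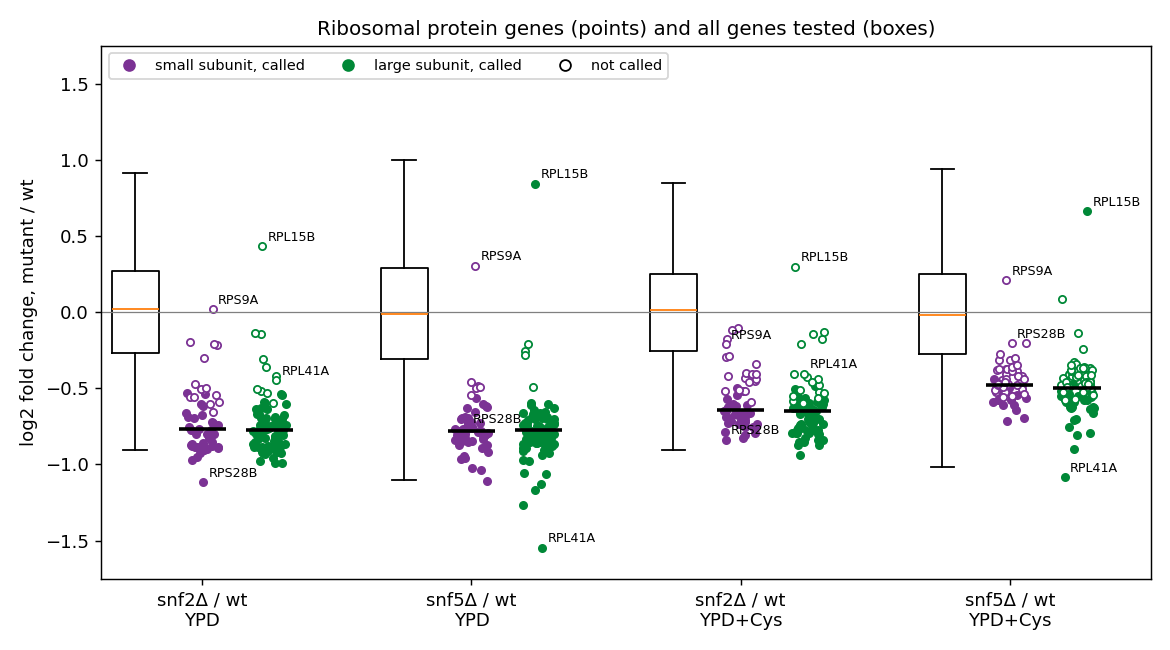
Log2 fold change of mutant over wt (vertical axis) for 55 small subunit genes (purple) and 81 large subunit genes (green), filled where called by edgeR, with black lines at the medians. Boxes give the quartiles of all 5757 genes tested and whiskers their 5th and 95th percentiles. The medians of both subunits lie between -0.78 and -0.48, and *RPL15B* stands above 0 in all 4 comparisons.

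The medians of the subunits lay close together. In *snf2Δ* in YPD 40 of 55 small subunit genes were lower (median -0.76) and 70 of 81 of the large (median -0.77). In *snf5Δ* in YPD 49 and 76 were lower, with medians of -0.78 and -0.77. In YPD+Cys 36 and 63 were lower in *snf2Δ* (medians -0.64 and -0.65), and 18 and 38 in *snf5Δ* (medians -0.48 and -0.49). In each comparison a larger part of the large subunit genes than of the small was called lower, a difference that was not tested. Of all genes 11.8%, 15%, 11.6% and 11.3% were lower in these comparisons. Features not used to choose the genes made as little difference to the medians as the subunit did. Genes with an intron had a median of -0.77 in *snf2Δ* and -0.78 in *snf5Δ* in YPD, and those without one -0.76 and -0.77. The 19 genes with a Rap1 match had -0.74 and -0.76, and the other 117 had -0.77 and -0.78. Rap1 binds most promoters of the family, and the pattern matched only 14% of them. This split therefore does not separate bound from unbound genes. The 24 genes in which at most 90% of the 75-base windows occur once in the transcripts, whose reads could be shared with a copy, had -0.79 and -0.79.

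Core proteins of the large subunit showed the common fall. *RPL3*, which encodes a protein near the peptidyl transferase center, had 2865, 2115 and 3354 CPM in the wt libraries in YPD, 1411, 1694 and 1795 in *snf2Δ* and 1667, 1820.2 and 1791 in *snf5Δ*. Its libraries did not overlap between wt and either mutant, and the log2 fold changes were -0.77 ± 0.19 (SE; edgeR adjusted p = 0.00909) and -0.66 ± 0.19 (edgeR adjusted p = 0.0164). *RPL10*, which joins the subunit late and completes it for translation, changed by -0.64 ± 0.21 and -0.80 ± 0.21 (edgeR adjusted p = 0.0425 and 0.0101). *RPL28*, in which mutations give resistance to cycloheximide, changed by -0.67 ± 0.22 and -0.89 ± 0.22 (edgeR adjusted p = 0.0417 and 0.00712). In *RPL30*, whose protein blocks splicing of its own transcript, the changes were -0.80 ± 0.14 and -0.86 ± 0.14 (edgeR adjusted p = 0.00103 and 0.000372). Of the 19 genes with 1 copy, 15 were lower in *snf2Δ* and 19 in *snf5Δ* in YPD. The shares lower there were 80.9% and 91.9% of all members, and 11.8% and 15% of all genes. Several of these calls rested on single libraries. *RPL3* was no longer called in *snf2Δ* without *snf2Δ* replicate 1 or wt replicate 3 (edgeR adjusted p = 0.0519 and 0.055), nor in *snf5Δ* without *snf5Δ* replicate 1, wt replicate 1 or wt replicate 3 (edgeR adjusted p = 0.0589, 0.0514 and 0.0906). *RPL10* lost its call in *snf2Δ* without *snf2Δ* replicate 1, *snf2Δ* replicate 2, *snf2Δ* replicate 3, wt replicate 1 or wt replicate 3 (edgeR adjusted p = 0.166, 0.0617, 0.0652, 0.0779 and 0.209), and in *snf5Δ* without wt replicate 3 (edgeR adjusted p = 0.0606). *RPL28* lost it in *snf2Δ* without *snf2Δ* replicate 1, *snf2Δ* replicate 2, wt replicate 1 or wt replicate 3 (edgeR adjusted p = 0.163, 0.0884, 0.0668 and 0.197).

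All 7 genes of the stalk, the flexible arm of the large subunit that recruits elongation factors, were lower in both mutants in YPD and in *snf2Δ* in YPD+Cys. Of all members 80.9% (*snf2Δ*) and 91.9% (*snf5Δ*) were lower in YPD, and 72.8% in *snf2Δ* in YPD+Cys. The shares of all genes were 11.8%, 15% and 11.6%. *RPP0*, which encodes the base of the stalk, had 2274, 1753 and 2573 CPM in wt in YPD, 1038, 1269 and 1252 in *snf2Δ* and 1266, 1370.3 and 1357 in *snf5Δ*. Its groups did not overlap, with log2 fold changes of -0.89 ± 0.18 and -0.72 ± 0.18 (edgeR adjusted p = 0.00221 and 0.00647). The acidic proteins that dimerize on it changed by -0.61 ± 0.14 (*RPP1A*), -0.79 ± 0.16 (*RPP1B*), -0.88 ± 0.16 (*RPP2A*) and -0.77 ± 0.17 (*RPP2B*) in *snf2Δ* in YPD, and by -0.69 ± 0.14, -0.67 ± 0.16, -0.83 ± 0.16 and -0.70 ± 0.17 in *snf5Δ*. *RPL12A*, which with *RPL12B* encodes the protein at the foot of the stalk, was among the genes that fell furthest in *snf2Δ*. It had 624, 489 and 712 CPM in wt in YPD and 252, 317 and 350.5 in *snf2Δ*, a change of -0.99 ± 0.19 (edgeR adjusted p = 0.00189). In *snf5Δ* in YPD+Cys only *RPL12A* and *RPP2A* of the 7 were called lower. *RPL12A* was not called there without *snf5Δ* replicate 1, *snf5Δ* replicate 2 or wt replicate 3 (edgeR adjusted p = 0.0716, 0.0768 and 0.143), and *RPP2A* without *snf5Δ* replicate 1, *snf5Δ* replicate 2, *snf5Δ* replicate 3, wt replicate 1 or wt replicate 3 (edgeR adjusted p = 0.126, 0.127, 0.0542, 0.0749 and 0.206). In *snf2Δ* in YPD+Cys, *RPP0* was not called without wt replicate 3 (edgeR adjusted p = 0.0517), and *RPL12B*, *RPP1A*, *RPP1B* and *RPP2B* each lost the call without wt replicate 3 or *snf2Δ* replicate 1, *RPP1A* also without *snf2Δ* replicate 3 (edgeR adjusted p from 0.0581 to 0.154).

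The next 3 groups of genes are set against the 80.9% (*snf2Δ*) and 91.9% (*snf5Δ*) of all members that were lower in YPD. The shares of all genes lower were 11.8% and 15%. The genes of the 5S ribonucleoprotein, in which Rpl5 and Rpl11 carry the 5S ribosomal RNA into the large subunit, were lower in 3 of 3 cases in both mutants in YPD. *RPL5* had 1939, 1415 and 2153 CPM in wt, 822, 1068 and 1036 in *snf2Δ* and 979, 1024 and 1163 in *snf5Δ*, changes of -0.91 ± 0.19 and -0.80 ± 0.19 (edgeR adjusted p = 0.00264 and 0.00487). Around the exit of the peptide tunnel, 13 of 14 genes were lower in each mutant in YPD. *RPL25*, at that exit and a landing site for the signal recognition particle, changed by -0.79 ± 0.16 and -0.74 ± 0.16 (edgeR adjusted p = 0.00199 and 0.00222). The gene not called was *RPL39* in *snf2Δ* and *RPL4B* in *snf5Δ*. Of the 3 genes that encode ubiquitin fused to a ribosomal protein, *RPS31*, *RPL40A* and *RPL40B*, 2 were lower in *snf2Δ* and 3 in *snf5Δ* in YPD. *RPS31* had 3945, 4180.1 and 5518 CPM in wt, 2694, 3479.6 and 3118 in *snf2Δ* and 2217, 2318 and 2559 in *snf5Δ*. Its groups did not overlap, but only the change in *snf5Δ*, -0.94 ± 0.24, passed the test (edgeR adjusted p = 0.00867, and 0.121 in *snf2Δ*).

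In the small subunit, *RPS3*, whose protein lines the entry of the messenger RNA channel, had 1667, 1234 and 1811 CPM in wt in YPD, 685, 922 and 919 in *snf2Δ* and 909, 926 and 939 in *snf5Δ*. It changed by -0.90 ± 0.19 and -0.76 ± 0.19 (edgeR adjusted p = 0.00333 and 0.00705). *RPS14A* and *RPS14B*, the second of which is held down by its own protein, both fell. *RPS14B* had 169, 123 and 152 CPM in wt, 80.6, 93.0 and 107 in *snf2Δ* and 77.1, 74.9 and 63.2 in *snf5Δ*. *RPS28B*, another gene whose protein limits it, through decay of its RNA, fell most of all members in *snf2Δ* in YPD. Its libraries had 147, 79.1 and 92.8 CPM in wt, 41.9, 46.0 and 59.5 in *snf2Δ* and 61.7, 62.5 and 63.2 in *snf5Δ*, changes of -1.12 ± 0.23 and -0.77 ± 0.22 (edgeR adjusted p = 0.00249 and 0.0176). Wt replicate 1 was high, and the call in *snf5Δ* was lost without *snf5Δ* replicate 1, *snf5Δ* replicate 2 or wt replicate 1 (edgeR adjusted p = 0.0537, 0.0553 and 0.16). *RPS28A* changed by -0.53 ± 0.14 and -0.56 ± 0.14 (edgeR adjusted p = 0.0124 and 0.00708), the first not called without *snf2Δ* replicate 1 or wt replicate 3 (edgeR adjusted p = 0.0672 and 0.0595).

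The other genes named for the size of their fall are given by mutant. In *snf2Δ* they were *RPL20A* (-0.99 ± 0.19) and *RPL16A* (-0.98 ± 0.17) in YPD, and *RPL20A* (-0.88 ± 0.19), *RPL14B* (-0.87 ± 0.16) and *RPL18B* (-0.85 ± 0.15) in YPD+Cys, all called by edgeR with groups that did not overlap. The paralogs *RPL20B*, *RPL16B* and *RPL14A* were lower as well, at -0.68 ± 0.19, -0.90 ± 0.19 and -0.81 ± 0.15 in YPD, though *RPL20B* was not called without *snf2Δ* replicate 1, wt replicate 1 or wt replicate 3 (edgeR adjusted p = 0.097, 0.0559 and 0.083). In *snf5Δ* the list in both media was *RPL41A*, *RPL41B*, *RPL43B* and *RPL23B*. *RPL43B* had 1613, 1371 and 1556 CPM in wt in YPD and 743, 659 and 620.1 in *snf5Δ*, a change of -1.17 ± 0.19 (edgeR adjusted p = 0.000227). *RPL23B* had 1874, 1968 and 2257 in wt and 884, 859.7 and 1051 in *snf5Δ*, a change of -1.13 ± 0.20 (edgeR adjusted p = 0.000583). The *RPL23B* call in YPD+Cys was lost without *snf5Δ* replicate 2 (edgeR adjusted p = 0.0626).

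*RPL41A* and *RPL41B* were the 2 members called between the mutants. They encode Rpl41, a peptide of 25 residues and the smallest protein of the ribosome, and their 78-base coding sequences differ at 1 base, shown in capitals in the RefSeq R64 sequence. They are shown because this pair held the only member calls between the mutants. *RPL29* and *RPL39* also lay lower in *snf5Δ* than in *snf2Δ* in YPD without overlap, but were not called. Their differences were -0.62 ± 0.21 and -0.59 ± 0.20 (edgeR adjusted p = 0.144 and 0.146). At an unadjusted p under 0.05 there were 5 members in this comparison, and 5 were lower in *snf5Δ*.
RPL41A (chrIV:130407-130484, minus strand): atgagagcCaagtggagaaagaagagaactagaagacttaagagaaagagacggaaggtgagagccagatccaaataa
RPL41B (chrIV:221724-221801, minus strand): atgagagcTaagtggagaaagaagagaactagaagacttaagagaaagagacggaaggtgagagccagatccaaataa
*RPL41A* had 2249, 3269 and 2511 CPM in wt in YPD, 2385, 2142 and 1363 in *snf2Δ* and 955, 891 and 902 in *snf5Δ*. *RPL41B* had 1737, 2072 and 1618 in wt, 1424, 1439 and 967 in *snf2Δ* and 867, 678 and 709 in *snf5Δ*. For both genes all *snf5Δ* libraries lay below all *snf2Δ* and wt libraries, while those of *snf2Δ* and wt overlapped for *RPL41A*. Against wt, *RPL41A* fell in *snf5Δ* by 1.55 ± 0.23 on the log2 scale (edgeR adjusted p = 0.000123) and *RPL41B* fell by 1.27 ± 0.19 (edgeR adjusted p = 0.000154), the lowest values of the family. In *snf2Δ* the changes of -0.45 ± 0.22 and -0.50 ± 0.19 were not called (edgeR adjusted p = 0.182 and 0.0748). Tested directly, *snf5Δ* minus *snf2Δ* in YPD was -1.10 ± 0.23 for *RPL41A* (edgeR adjusted p = 0.013) and -0.76 ± 0.19 for *RPL41B* (edgeR adjusted p = 0.0388). They made up 1.47% of the members, and 2.99% of all genes were called in this comparison. The fit did not pair the mutants by replicate number, though their same-numbered YPD libraries correlated at 0.08 to 0.55. The *RPL41A* call was lost without *snf2Δ* replicate 1 or 2 or *snf5Δ* replicate 2 (edgeR adjusted p of 0.0825, 0.0647 and 0.0684), and without the 3 libraries with many reads in several places (edgeR adjusted p = 0.0913, and 0.229 for *RPL41B*), a fit in which *snf2Δ* in YPD has 1 library and the spread comes from the other groups. *RPL41B* was no longer called without *snf2Δ* replicate 1 or 2 (edgeR adjusted p = 0.168 and 0.18) or without *snf5Δ* replicate 1, 2 or 3 (0.056, 0.196 and 0.122). In YPD+Cys *RPL41A* differed by -0.68 ± 0.23 between the mutants (edgeR adjusted p = 0.161), and 0 members were called where 2.54% of all genes were. At an unadjusted p under 0.05 there were 3, and DESeq2 called 0. RSEM, which shares out reads by transcript, listed *RPL41A* at 0 in 18 of 18 libraries and *RPL41B* in 17, so these values rest on the STAR counts alone.

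Levels across members were compared per length, as CPM per kilobase of coding sequence, the only length that the gene models hold. In wt in YPD the lowest were *RPL15B* with 39.2, 35.6 and 26.4, *RPL22B* with 207, 137 and 132 and *RPS9A* with 253, 144 and 121. *RPL15B* stood below the others, while *RPL22B* and *RPS9A* overlapped. The highest were *RPS31* with 8595, 9107 and 12021, *RPL41B* with 22267, 26564 and 20739 and *RPL41A* with 28836, 41909 and 32189.6. A gene as short as *RPL41A* draws much of its count from reads that extend past the coding sequence, and its level per kilobase is not comparable with that of long genes.

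The 58 pairs of copies shared 69.2% to 99.4% of their coding sequence (median 93.1%), and 20 pairs encode identical proteins. The A copy had more counts in all 18 libraries in 33 pairs and the B copy in 21, so that only 4 pairs changed order between libraries. In wt in YPD 25 pairs differed more than 2-fold and 9 more than 4-fold. The log2 ratio of A to B was highest for *RPL15* at 6.47 ± 0.53 (SD, n = 3) and lowest for *RPS9* at -3.67 ± 0.62. RSEM gave the same order as the counts in wt in YPD in 50 of 58 pairs.

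The next question was whether the copies of a pair moved together. For each library the log2 ratio of A to B was taken, which needs no scaling between libraries. In *snf2Δ* in YPD the ratio of 21 of 58 pairs (36.2%) did not overlap between the libraries of the mutant and wt, against 40% of 475 pairs of paralogs in the genome. In *snf5Δ* in YPD it was 19 pairs (32.8%) against 45.9%, and in YPD+Cys 17 (29.3%) against 41.1% in *snf2Δ* and 21 (36.2%) against 46.3% in *snf5Δ*. Between the mutants in YPD it was 17 (29.3%) against 27.6%. With limma over all 475 pairs, 6 ribosomal protein pairs (10.3%) shifted in each mutant in YPD, against 31.8% of pairs in *snf2Δ* and 33.9% in *snf5Δ*, and 3 (5.17%) in each in YPD+Cys, against 28.0% and 28.8%. The counts in *snf2Δ* rested on single libraries, with 3 pairs in YPD without wt replicate 3, and in YPD+Cys 1 without wt replicate 1 or 2 or *snf2Δ* replicate 3 and 0 without wt replicate 3 or *snf2Δ* replicate 1. The shares of ribosomal protein pairs lay at or below the background in each comparison of a mutant with wt. Of each pair, the copy with fewer counts in wt, chosen in the other medium, fell less than its partner in 31, 38, 27 and 33 of 58 pairs (*snf2Δ* and *snf5Δ* in YPD, then YPD+Cys), and in 288, 276, 284 and 268 of 417 other pairs.

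**Figure D3:**
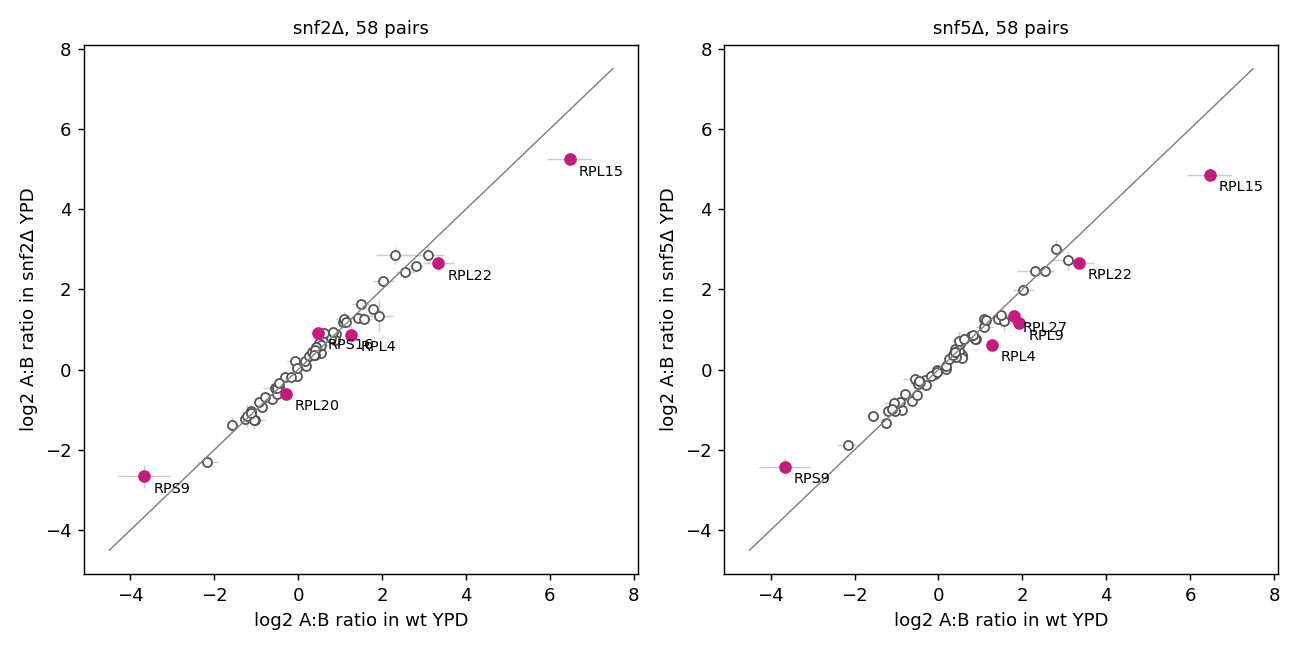
Log2 ratio of A to B counts of 58 pairs in wt in YPD (horizontal axis) and in *snf2Δ* (left) or *snf5Δ* (right) in YPD (vertical axis), as means with SD of 3 libraries. Filled points were called by limma and the line marks equal ratios. *RPL15* and *RPS9*, the pairs with the highest and the lowest ratio in wt, moved toward 0 in both mutants, to 5.24 and 4.86, and to -2.66 and -2.42. Both are extremes of the same wt values they are compared with, a choice that can by itself bring movement toward 0. Its share in the movement was not tested.

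*RPL15B* was the one member called higher than in wt, and only in *snf5Δ*. Rpl15 is a core protein of the large subunit, and its copies encode proteins that differ at 2 residues. *RPL15B* had 24.1, 21.9 and 16.3 CPM in wt in YPD, 24.4, 30.8 and 30.0 in *snf2Δ* and 32.1, 38.8 and 42.8 in *snf5Δ*. Every mutant library was above every wt library, and the change was 0.85 ± 0.21 in *snf5Δ* (edgeR adjusted p = 0.00791) and 0.43 ± 0.22, not called, in *snf2Δ* (edgeR adjusted p = 0.184). *RPL15A* had 1829.6, 1502 and 2226 in wt, 941, 1222 and 1087 in *snf2Δ* and 1053, 1103 and 1130.3 in *snf5Δ*, and fell by 0.77 ± 0.18 and 0.76 ± 0.18 on the log2 scale (edgeR adjusted p = 0.0056 and 0.00501). The ratio of A to B moved by -1.23 ± 0.28 (SE; limma adjusted p = 0.00369) in *snf2Δ*, a call lost without the 3 libraries with many reads in several places (-1.21 ± 0.44; limma adjusted p = 0.0849), and -1.61 ± 0.28 (SE; limma adjusted p = 0.000448) in *snf5Δ*. In YPD+Cys *RPL15B* had 27.8, 17.6 and 22.6 in wt, 25.8, 21.5 and 36.0 in *snf2Δ* and 32.6, 40.7 and 34.3 in *snf5Δ*. Its change of 0.66 ± 0.21 in *snf5Δ* (edgeR adjusted p = 0.0308) was not called without *snf5Δ* replicate 2, *snf5Δ* replicate 3, wt replicate 2 or wt replicate 3 (edgeR adjusted p = 0.097, 0.0511, 0.125 and 0.0873), nor with RSEM's counts (edgeR adjusted p = 0.121). The copy remained minor: in YPD *RPL15A* held 98.9% of the pair's counts for wt, against 97.4% for *snf2Δ* and 96.7% for *snf5Δ*. The 200 bases before the start codon are shown because the copies moved in opposite directions; capitals mark AAAATTTT, present only before *RPL15A*, and TTACCCG, present only before *RPL15B*, and neither has the Rap1 match within 500 bases.
RPL15A (chrXII:202591-202790, minus strand): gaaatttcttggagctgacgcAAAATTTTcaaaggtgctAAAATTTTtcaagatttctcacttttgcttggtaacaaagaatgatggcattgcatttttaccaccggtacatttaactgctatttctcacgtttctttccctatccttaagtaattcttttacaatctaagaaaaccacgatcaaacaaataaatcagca
RPL15B (chrXIII:510349-510548, minus strand): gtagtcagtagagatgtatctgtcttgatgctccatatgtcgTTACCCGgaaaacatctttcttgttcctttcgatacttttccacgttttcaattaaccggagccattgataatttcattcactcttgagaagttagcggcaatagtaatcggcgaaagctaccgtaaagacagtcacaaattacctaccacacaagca
AAAATTTT occurs before 12.4% and TTACCCG before 10.1% of protein-coding genes in windows of 500 bases, so neither match is rare.

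*RPS9*, the pair with the lowest ratio, also shifted. Rps9 is a small subunit protein that helps keep decoding accurate, and *RPS9B* is the major copy. *RPS9B* had 1327, 981 and 1468 CPM in wt in YPD, 529, 668 and 735 in *snf2Δ* and 668, 652 and 711 in *snf5Δ*. *RPS9A* had 150.5, 85.4 and 72.1 in wt, 76.6, 91.1 and 147 in *snf2Δ* and 117, 109 and 158 in *snf5Δ*, with overlap between groups. The major copy fell by 0.97 ± 0.20 and 0.90 ± 0.20 on the log2 scale (edgeR adjusted p = 0.00231 and 0.00298), and the minor one was not called (0.02 ± 0.32 and 0.30 ± 0.31). The sign of the *RPS9A* change in *snf2Δ* turned without wt replicate 2 (-0.05), wt replicate 3 (-0.17) or *snf2Δ* replicate 3 (-0.30). The ratio moved by 1.01 ± 0.32 (SE; limma adjusted p = 0.0249) in *snf2Δ*, a call lost without wt replicate 3 (limma adjusted p = 0.129), *snf2Δ* replicate 3 (0.088) or the 3 libraries (0.226), and by 1.25 ± 0.32 (SE; limma adjusted p = 0.00673) in *snf5Δ*.

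Among the other pairs named by the size of their shift, 1 copy fell further than the other. *RPL4A*, which with *RPL4B* encodes a protein that lines the exit tunnel, had 720.2, 531 and 741 CPM in wt in YPD, 334, 349 and 343 in *snf2Δ* and 347, 355 and 357 in *snf5Δ*. *RPL4B* had 287, 220.3 and 319 in wt, 155, 198 and 217 in *snf2Δ* and 232, 229 and 232 in *snf5Δ*, and in *snf5Δ* its change of -0.25 ± 0.16 was not called (edgeR adjusted p = 0.27). The ratio moved by -0.66 ± 0.10 (SE; limma adjusted p = 0.000137) in *snf5Δ*, by -0.41 ± 0.10 (SE; limma adjusted p = 0.00616) in *snf2Δ*, a call lost without the 3 libraries (-0.16 ± 0.11; limma adjusted p = 0.375), and by -0.47 ± 0.10 (SE; limma adjusted p = 0.00235) in *snf5Δ* in YPD+Cys. Only 37.8% of the 75-base windows of each copy are unique, so part of their reads cannot be assigned, and RSEM, which shares them out, gave -0.65, -0.38 and -0.41. The copies of *RPL22* encode proteins that differ at 19 residues, and in yeast Rpl22 limits splicing of *RPL22B*. *RPL22B* had 76.5, 50.4 and 48.8 CPM in wt, 50.8, 45.6 and 62.8 in *snf2Δ* and 50.4, 48.4 and 53.6 in *snf5Δ*, with overlap, and was called in no comparison, while *RPL22A* fell by 0.82 ± 0.16 and 0.87 ± 0.16 on the log2 scale. The *RPL22* ratio moved by -0.70 ± 0.22 (SE; limma adjusted p = 0.0249) and -0.68 ± 0.22 (SE; limma adjusted p = 0.0239), and both calls were lost without wt replicate 3 (limma adjusted p = 0.123 and 0.122), without *snf2Δ* replicate 1 or 3 (0.0799 and 0.0661), without *snf5Δ* replicate 2 or 3 (0.061 and 0.0661), without the 3 libraries (0.117 and 0.0813) and with RSEM (0.298 and 0.28). *RPL9B* was called in no comparison and *RPL9A* fell by 0.93 ± 0.20 and 1.06 ± 0.20. The *RPL9* ratio moved by -0.77 ± 0.26 (SE; limma adjusted p = 0.0337) in *snf5Δ*, a call lost without *snf5Δ* replicate 1, 2 or 3 (limma adjusted p of 0.0975, 0.0542 and 0.0695), wt replicate 2 or 3 (0.0656 and 0.145) or the 3 libraries (0.0661). In *RPL43* it was the major copy, *RPL43B*, that fell further, and the ratio moved by 0.47 ± 0.16 (SE; limma adjusted p = 0.0335) in *snf5Δ* in YPD+Cys, a call lost without *snf5Δ* replicate 2 or 3 (0.169 and 0.0625) or wt replicate 1 or 2 (0.112 and 0.0623).

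**Figure D4:**
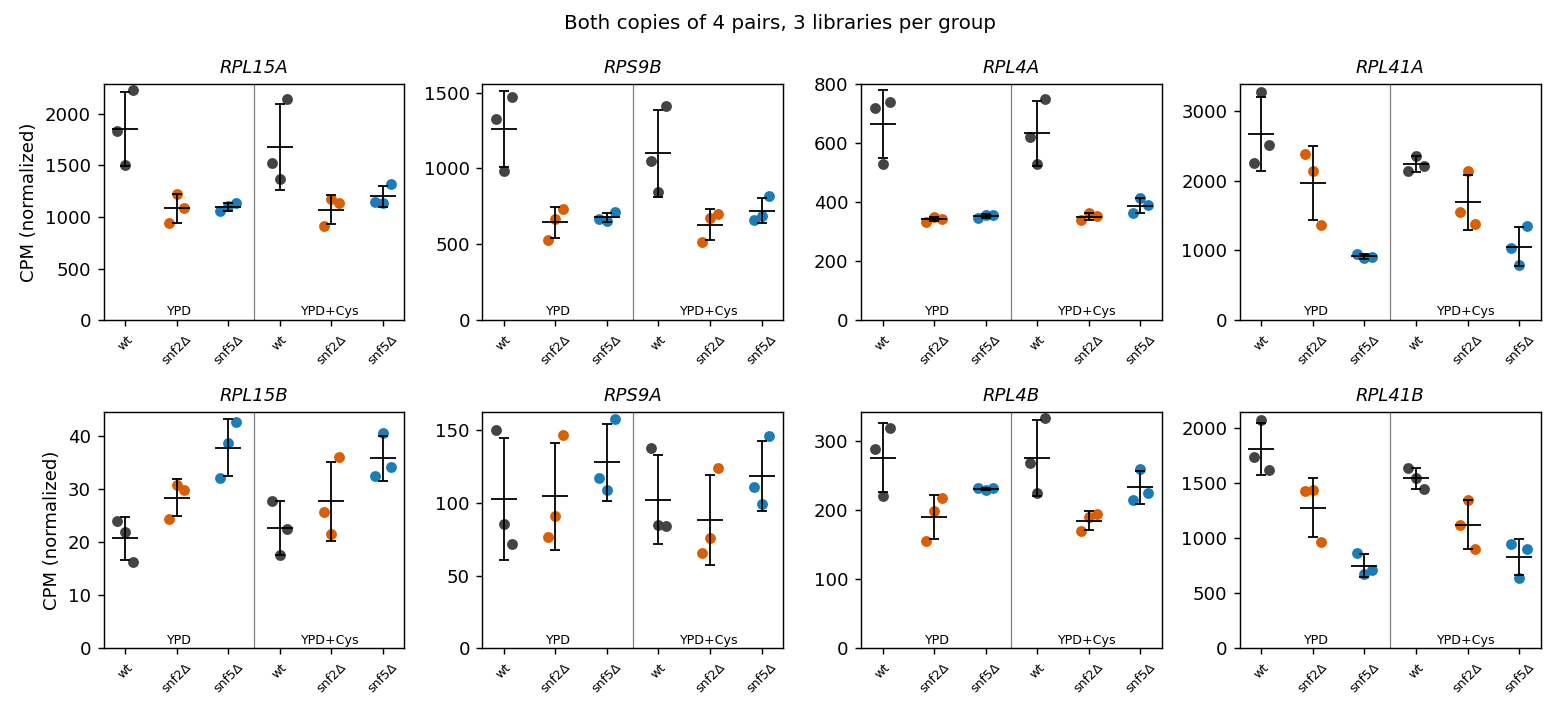
CPM (vertical axes, from 0) of both copies of *RPL15*, *RPS9*, *RPL4* and *RPL41* in each of 3 libraries of wt, *snf2Δ* and *snf5Δ* in YPD and YPD+Cys, with mean and SD. The major copies of the first 3 pairs are lower in the mutants, *RPL15B* is higher in *snf5Δ*, and the *RPL41* copies are lowest in *snf5Δ*.

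No member passed the test for a response to cysteine in the fit without pairing. edgeR called 0 of 136 in wt, in *snf2Δ* and in *snf5Δ*, where 0.434%, 0.643% and 0.903% of all genes were called. At an unadjusted p under 0.05 there were 0, 0 and 0 members, and DESeq2 called 0 in each. The median log2 change was -0.19, -0.08 and 0.10, and 135, 122 and 16 of 136 members were lower with cysteine. The YPD and YPD+Cys libraries did not overlap for 2 members in wt, both lower with cysteine (1.47%, against 9.45% of all genes), for 0 in *snf2Δ* (9.03%) and for 19 in *snf5Δ*, all of them higher (14%, against 10.1%). The differences of the cysteine response from that of wt were called for 0 members in *snf2Δ* (0.0869% of all genes) and 0 in *snf5Δ* (0.33%), with 0 and 1 members at an unadjusted p under 0.05 and 0 called by DESeq2. Libraries with the same number deviated together within a strain, so the comparisons were also fitted with the replicate number within strain as a block. In that paired fit edgeR called 10 members lower with cysteine in wt (7.35%, against 3.13% of all genes). Among them were *RPL42B* at -0.38 ± 0.10 (edgeR adjusted p = 0.0312), *RPL23B* at -0.35 ± 0.10 (0.0366) and *RPS14B* at -0.29 ± 0.08 (0.0348). At an unadjusted p under 0.05, 97 members were lower in wt. No share of all genes at an unadjusted p is given here, so the unadjusted counts have no background. The paired fit called 0 in *snf2Δ* (3.02% of all genes lower) and 0 in *snf5Δ* (2.03%). At an unadjusted p under 0.05, 11 were lower in the first and 7 higher in the second. The response of *snf2Δ* differed from that of wt for 0 members (0.556% of all genes), with 3 at an unadjusted p under 0.05. That of *snf5Δ* differed for 2 (1.47%, against 1.46%), *RPS14B* by 0.48 ± 0.12 and *RPS28B* by 0.53 ± 0.13 (edgeR adjusted p = 0.0497 and 0.0459). At an unadjusted p under 0.05 the response of *snf5Δ* differed for 96 of 136 members, 0 of them lower. The median difference over the members was 0.28. Members share libraries and are not independent replicates. DESeq2 was not run with the block.

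Genes around the family moved in part with it. Of 24 translation initiation and elongation factors, 17 were lower and 1 higher in *snf2Δ* in YPD, 12 and 1 in *snf5Δ*, and 19 and 1, and 6 and 1, in YPD+Cys. Over all genes, lower calls made up 11.8%, 15%, 11.6% and 11.3%, with the comparisons in that order. Higher calls made up 7.89%, 12%, 7.73% and 9.73%. Those percentages are also the background for the smaller sets below. *TEF1*, which encodes elongation factor 1A, changed by -0.80 (edgeR adjusted p = 0.00557) in *snf2Δ* and -0.74 (edgeR adjusted p = 0.00695) in *snf5Δ* in YPD, and *EFB1*, its exchange factor, by -1.11 (edgeR adjusted p = 0.000423) and -0.93 (edgeR adjusted p = 0.00113). The gene that rose was *HEF3*, the minor paralog of the elongation factor 3 gene *YEF3*, at 0.83 (edgeR adjusted p = 0.0107) and 1.36 (edgeR adjusted p = 0.000159). Of 10 proteins that sit on the ribosome, 8, 5, 8 and 3 were lower, among them *ASC1* at -1.01 (edgeR adjusted p = 0.00207) and -0.98 (edgeR adjusted p = 0.00186) and the chaperone gene *SSB1* at -1.27 (edgeR adjusted p = 0.000764) and -1.13 (edgeR adjusted p = 0.00124) in YPD. Of 7 chaperones dedicated to ribosomal proteins, edgeR called 0 in each of the 4 comparisons, with 0, 1, 3 and 0 at an unadjusted p under 0.05.

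Of 16 regulators of ribosomal protein genes, edgeR called 0 in *snf2Δ* in YPD (4 at an unadjusted p under 0.05), and in *snf5Δ* only *SCH9*, the TORC1-regulated kinase, at -0.42 (edgeR adjusted p = 0.00754). Among all genes in YPD, 11.8% were lower and 7.89% higher in *snf2Δ*, and 15% and 12% in *snf5Δ*. In YPD+Cys 4 of 16 were called in *snf2Δ*, where 11.6% of all genes were lower and 7.73% higher, and 3 in *snf5Δ*, where 11.3% were lower and 9.73% higher. *SFP1* was lower in both mutants, at -0.46 (edgeR adjusted p = 0.0159) in *snf2Δ* and -0.42 (edgeR adjusted p = 0.0265) in *snf5Δ*. *ABF1* was higher, at 0.60 (edgeR adjusted p = 0.0248) and 0.56 (edgeR adjusted p = 0.0341), and so was *CRF1*, at 1.45 (edgeR adjusted p = 0.0144) and 1.24 (edgeR adjusted p = 0.0362), with at most 25 counts in a library. *TOR2* was called higher in *snf2Δ*, at 0.32 (edgeR adjusted p = 0.0206). In YPD *RAP1* was at 0.08 (edgeR adjusted p = 0.795) in *snf2Δ* and 0.18 (edgeR adjusted p = 0.475) in *snf5Δ*. *FHL1* was at 0.04 (edgeR adjusted p = 0.884) and -0.09 (edgeR adjusted p = 0.689), and *IFH1* at 0.32 (edgeR adjusted p = 0.581) and 0.84 (edgeR adjusted p = 0.0959).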

How the data were processed

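RNA-seq of 18 libraries was analysed from 3 kinds of values. RNA was depleted of ribosomal RNA. The authors demultiplexed reads with bcl2fastq 2.18 and aligned them with STAR 2.7.3a to sacCer3 with Ensembl annotation, and the deposited gene counts are STAR's whole-number counts of reads with 1 place per gene. The authors also ran RSEM 1.3.0, whose deposited expected counts share reads with several places among transcripts. The deposited TPM values come from the same RSEM output and are divided by gene length. Whether strand was used in the counting is not given in the sources used here.

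The 4 lines that name no gene (14.4% to 78.2% of a library) were left out of totals. Of 7127 identifiers, 6047 matched RefSeq R64. Some genes of the family are not reported here. Counts were tested with edgeR 4.0.16 (quasi-likelihood, TMM, filterByExpr, all 6 groups in 1 fit, R 4.3.3). Pair ratios, (A + 0.5)/(B + 0.5), were compared library by library and, as an alternative added after the data were seen, with limma 3.58.1 over 475 pairs, the 58 of the family and reciprocal best BLASTP hits of translated coding sequences; this replaced a planned form that needed a protein table. Alternatives were other scalings and filters, DESeq2 1.42.0, RSEM's expected counts rounded to whole numbers, limma on log2(TPM + pseudocount), the compared groups alone, a replicate block, leaving out 1 library, and leaving out 3 libraries with many reads in several places. Steps were tested on simulated data. No per-sample column lacked a sample.

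Same-numbered libraries of a strain in both media deviated together (correlations of 0.49 to 0.61 in wt, 0.46 to 0.79 in *snf2Δ* and 0.22 to 0.51 in *snf5Δ*). The fit with a block within strain took the numbers as pairs on that ground, which the labels do not state. In *snf5Δ* libraries with other numbers correlated at up to 0.18. Between wt and a mutant in YPD, same-numbered libraries correlated at -0.31 to 0.17 (*snf2Δ*) and -0.14 to 0.33 (*snf5Δ*). No pairing of wt with mutants was assumed. Between *snf2Δ* and *snf5Δ* the correlations were 0.08 to 0.55 in YPD and 0.07 to 0.57 in YPD+Cys. The main fit did not use that pairing. Named genes were up to 4 members a direction with the largest called change and groups that did not overlap, the 6 pairs with the largest called shift, their paralogs, the 3 highest and 3 lowest levels per kilobase, and a fixed list of examples. The members and lists were chosen with earlier results of these data known.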

Additional observations from a re-analysis of the deposited data

Results flagged for a closer look

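In the fit with the replicate number within strain as a block, the cysteine response of *snf5Δ* differed from that of wt, by the test of the difference itself, for *RPS14B* and *RPS28B*. The log2 response of *RPS14B* was 0.48 higher in *snf5Δ* (edgeR adjusted p = 0.0497), at -0.29 in wt and 0.19 in *snf5Δ*. That of *RPS28B* was 0.53 higher (edgeR adjusted p = 0.0459), at -0.27 in wt and 0.26 in *snf5Δ*. Without the block neither difference was called. Both lie near the threshold, and 1.46% of all genes were called in that comparison. At an unadjusted p under 0.05 the blocked fit gave 96 of 136 members, 0 of them with a lower response in *snf5Δ*.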

How the results depend on the processing

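The fall of the members kept its sign against all genes under each scaling, while the counts of calls did not keep their size. With library totals 43 members were lower in *snf5Δ* in YPD, 48 in *snf2Δ* and 8 in *snf5Δ* in YPD+Cys. With the compared groups alone 20 and 14 were lower in YPD+Cys, and 1 was called between the mutants in YPD. With limma on log2 TPM, at a pseudocount of 1 or 0.1, 0 were lower in each of the 4 comparisons, 4 were higher in *snf5Δ* in YPD+Cys and 0 were called between the mutants. With RSEM 0 were higher in *snf5Δ* in YPD+Cys and 0 called between the mutants. Without the 3 libraries with many reads in several places 34 were lower in *snf5Δ* in YPD+Cys and 0 called between the mutants. The cause was not tested. Without 1 library in turn, members lower ranged from 86 to 108 and from 104 to 125 in *snf2Δ* and *snf5Δ* in YPD, and from 35 to 108 and from 9 to 92 in YPD+Cys, higher in *snf5Δ* in YPD+Cys from 0 to 1, and called between the mutants in YPD from 0 to 3.

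With the replicate block over all strains 111 members were lower in *snf5Δ* in YPD+Cys. With the block within strain 10 were called for cysteine in wt and 2 for the difference of *snf5Δ* from wt. Over all genes, same-numbered wt and mutant libraries did not steadily deviate together. The library numbered 3 nevertheless held the highest share of the family in each group. Shifted pairs, in the order *snf2Δ* and *snf5Δ* in YPD, *snf2Δ* and *snf5Δ* in YPD+Cys, and between the mutants, were 21, 19, 17, 21 and 17 by libraries that do not overlap. They were 6, 6, 3, 3 and 0 with limma, 1, 5, 0, 2 and 0 with limma on the compared groups alone, 8, 8, 4, 4 and 1 with limma and the block, 8, 5, 6, 3 and 0 with limma on RSEM's counts, and 0, 4, 3, 3 and 0 with limma without the 3 libraries, where *snf2Δ* in YPD has 1 library. With RSEM's counts 12 did not overlap in *snf5Δ* in YPD. Without 1 library limma gave 3 to 8, 4 to 6, 0 to 2, 2 to 4 and 0 to 1.

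The share of the members was 7.51%, 5.17% and 5.31% with RSEM (wt, *snf2Δ*, *snf5Δ* in YPD) and 7.87%, 5.61% and 6.30% with TPM, and in YPD+Cys 6.84%, 5.04% and 5.87% with RSEM and 6.64% with TPM in wt. Fold changes that were not called changed sign for 5 genes. With library totals *RPL22B* was at 0.0999 and 0.133 in *snf2Δ* and *snf5Δ* in YPD and 0.0926 in *snf5Δ* in YPD+Cys, *RPL4B* at 0.0913 and 0.0179 in *snf5Δ* in YPD and YPD+Cys, *RPL9B* at 0.0658 in *snf5Δ* in YPD and 0.0281 in *snf2Δ* in YPD+Cys, and *RPS28B* at 0.0401 in *snf5Δ* in YPD+Cys. Without 1 library *RPL22B* in YPD lay between -0.28 and 0.14 in *snf2Δ* and between -0.32 and 0.0722 in *snf5Δ*, above 0 without wt replicate 1, and from -0.26 to 0.079 in *snf5Δ* in YPD+Cys, above 0 without wt replicate 1 (0.018) or *snf5Δ* replicate 2. *RPL9B* in YPD+Cys ranged from -0.35 to 0.0249 in *snf2Δ*, above 0 without wt replicate 1, and from -0.0218 to 0.25 in *snf5Δ*, below 0 without wt replicate 2 (-0.0016) or *snf5Δ* replicate 3. *RPS9A* in *snf2Δ* ranged from -0.30 to 0.44 in YPD, below 0 without wt replicate 2 (-0.052) or 3 (-0.175) or *snf2Δ* replicate 3, and from -0.54 to 0.0979 in YPD+Cys, above 0 without wt replicate 1 or *snf2Δ* replicate 1 (0.0028).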

Other observations

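Genes of the mitochondrial ribosome, counted beside those of the cytosol, had medians near 0. Of 56 such genes, edgeR called 1 higher and 1 lower in *snf2Δ* in YPD, 1 and 1 in *snf5Δ* in YPD, 0 and 0 in *snf2Δ* in YPD+Cys (3 at an unadjusted p under 0.05), and 3 and 0 in *snf5Δ* in YPD+Cys. Among all genes, in the same order, 7.89%, 12%, 7.73% and 9.73% were higher. The shares of all genes called lower were 11.8%, 15%, 11.6% and 11.3%. The medians that follow are those of the mitochondrial genes. Their median log2 fold changes were -0.07, 0.04, 0.00 and 0.05.

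The shortest members had unlike values in the mutants. *RPL39*, with a coding length of 156 bases, had log2 fold changes of -0.14 in *snf2Δ* and -0.73 in *snf5Δ* in YPD, and *RPL29*, with 180 bases, had -0.36 and -0.97. *RPS29A* and *RPS29B*, both with 171 bases, had -0.61 and -0.69 in *snf2Δ*, and -0.75 and -0.75 in *snf5Δ*. Over 136 members, coding length and log2 fold change in YPD had a Pearson correlation of -0.34 in *snf2Δ* and 0.15 in *snf5Δ*; the genes share libraries and are not independent replicates. RSEM's expected counts were 5.86% of STAR's counts for *RPS29A*, 10% for *RPL39* and 140% for *RPL4A*, with a median of 63.7% over the members.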
